A study of Mus musculus with 9 samples.

Results

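The splicing factors of the SR and hnRNP families, together with the CLK kinases that phosphorylate SR proteins, were described in CD11b+ cells from the brains of glioma-bearing mice. Members were chosen by symbol among protein-coding genes (Srsf followed by a number, any symbol beginning with Hnrnp, and Clk1 to Clk4) and selected on 10 or more raw counts in every library. Of 12538 protein-coding genes tested, 34 were members, namely 10 SR, 20 hnRNP and 4 CLK genes, and all 34 passed the low-count filter of the test. Symbols matched 35 protein-coding genes, and the minimum count left out Srsf12, which had 0 to 3 counts per library and 10 in total. Hnrnph3, the member nearest the minimum, had 152 to 348 counts per library. A pair of processed pseudogenes, Hnrnpa1l2-ps and Hnrnpa1l2-ps2, matched by symbol but are not protein-coding. The members took between 0.447% and 0.517% of the protein-coding counts of a library.

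Male C57BL/6J mice, 10 to 12 weeks old at the start according to the methods, received GL261 glioma cells carrying tdTomato and luciferase, and CD11b+ cells were sorted by FACS from the hemispheres with tumors. OAT-1746, an oral inhibitor of arginase 1 and 2, was given by gavage at 50 mg/kg, 2 times a day from day 1 after implantation. The groups were CTR with saline by gavage (n = 2), OAT-1746 (n = 2), anti-PD-1 with antibody injected intraperitoneally at 2.5 mg/kg (n = 2) and COMB with both agents at these doses (n = 3). The methods give day 28 for the collection and a legend gives day 21. In anti-PD-1 replicate 2 the label for treatment gives a target other than PD-1, and the title decided its group. The methods speak of biological replicates, but the labels do not say that each is a separate animal and pooling is not stated, so the p-values measure the spread between these samples only. Poly-A RNA was sequenced from 9 strand-specific libraries, with 13048075 to 18796479 counted read pairs each. Levels are in CPM after edgeR's TMM scaling.

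SR proteins bind exonic enhancers through RNA recognition motifs and recruit the spliceosome through a domain of arginine-serine repeats, while hnRNP proteins coat nascent transcripts and often bind silencers, so that the families frequently have opposite effects on an exon. CLK kinases phosphorylate the arginine-serine domains in the nucleus and release SR proteins from nuclear speckles. Many of these genes, Clk1 and Clk4 included, adjust their own output through retained introns or exons that lead to decay of the transcript. Counts per gene do not show which exons or introns were read, and splicing itself was not analysed here.

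Before the results, OAT-1746 replicate 2 has to be set apart. Across the 12538 tested genes, which are not independent replicates, its log2 CPM correlated with the other 8 libraries at r = 0.911 to 0.956, against 0.960 to 0.989 for all pairs among those 8. The members' median absolute distance from the CTR mean was 0.422 log2 units in that library, 0.197 in OAT-1746 replicate 1 and at most 0.259 (anti-PD-1 replicate 1) in the anti-PD-1 and COMB libraries. Itgam, which encodes CD11b, the marker used for the sort, had 302 and 369.5 CPM in CTR, 445 and 446 in OAT-1746, 294 and 327 in anti-PD-1 and 366, 307 and 328 in COMB. Of a list of myeloid and leukocyte genes (Itgam, Ptprc, Csf1r and Aif1), 4 of 4 exceeded 1 CPM in every library, none was at 0, and Csf1r was the most abundant, with sums of 7613 and 9177 CPM in CTR, 11166 and 12530 in OAT-1746, 8309 and 8559 in anti-PD-1 and 9969, 8070 and 8686 in COMB. Csf1r carries these sums, and in each OAT-1746 library Ptprc and Aif1 had less than either CTR value. Monocyte/macrophage markers (9 of 9 above 1 CPM in every library, none at 0, Tgfbi most abundant) summed to 12233 and 10951 CPM in CTR, 8019 and 1662 in OAT-1746, 9915 and 12690 in anti-PD-1 and 8705, 10645 and 11033 in COMB. Both OAT-1746 libraries had the lowest of these sums, replicate 2 by the wider margin, but Tgfbi and Lyz2 make up most of them. In OAT-1746 replicate 1 Ly6c2 (929 CPM against 303 and 692 in CTR), Plac8 (663 against 345 and 578) and Vcan (28.1 against 19.6 and 19.6) were above both CTR libraries. There, Ms4a7 (115 against 305 and 306), Ccr2 (234 against 337 and 377), F13a1, Itga4, Tgfbi and Lyz2 were under both. In OAT-1746 replicate 2 each of the 9 markers was under both CTR libraries. Their part in the results on the members was not tested, and in bulk samples fewer cells of a type and less RNA per cell cannot be told apart. Log2 fold changes that rest on the OAT-1746 group are therefore given also without replicate 2 for the members treated singly and for the medians of families and lists.

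Promoter sequences are shown for Clk4, Hnrnpa0 and Hnrnpab, 3 of the 6 members called in the comparison of COMB with OAT-1746, because 2 CLK genes fell and 3 hnRNP genes rose there, and the 3 shown have a single start in the table. The RefSeq table (build GRCm38.p6) holds 32851 promoters of 27025 genes, each of 250 bases before to 50 after a transcription start, and 31 of the 34 members have 43 of them. Clk1, Hnrnpll and Hnrnpul2 are not in the table. Each sequence runs 5′ to 3′ on the gene's strand and ends at the base before the start. Capitals mark matches on either strand to TGACGTCA (the CRE), to its contained core TGACG, to GGGCGG (the GC box) and to CCAAT (the CAAT box), and a match on the opposite strand appears as its reverse complement. Clk4 is limited to the 67 bases next to its start (chr11:51263047-51263113, plus strand), as 2 exons of BC049762 on the opposite strand, a gene with 7 counts in all libraries together, cover most of the bases before them, and 2 Clk4 transcripts pass over these bases as intron. Hnrnpa0 (chr13:58128557-58128806, minus strand, 81.2% GC) and Hnrnpab (chr11:51606882-51607131, minus strand, 58.4% GC) are given with all 250 bases before the start.
Clk4: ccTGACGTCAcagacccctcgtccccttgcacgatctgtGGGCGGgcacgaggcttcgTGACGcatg
Hnrnpa0: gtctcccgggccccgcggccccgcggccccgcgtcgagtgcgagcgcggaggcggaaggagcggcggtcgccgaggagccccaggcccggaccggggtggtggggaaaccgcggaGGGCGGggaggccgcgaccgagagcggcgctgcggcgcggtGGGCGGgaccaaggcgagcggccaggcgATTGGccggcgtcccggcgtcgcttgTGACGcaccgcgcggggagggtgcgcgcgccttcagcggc
Hnrnpab: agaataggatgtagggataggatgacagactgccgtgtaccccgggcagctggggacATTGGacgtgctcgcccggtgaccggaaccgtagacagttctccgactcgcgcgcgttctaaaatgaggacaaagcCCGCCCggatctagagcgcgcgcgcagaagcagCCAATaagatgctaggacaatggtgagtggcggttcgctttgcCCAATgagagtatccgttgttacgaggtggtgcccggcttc
The Clk4 sequence holds a CRE that begins 65 bases before the start, a GC box at 28 and a further core at 9 bases. Hnrnpa0 has GC boxes at 135 and 94, an inverted CAAT box at 66 and a core of the CRE at 40 bases before the start, and Hnrnpab has CAAT boxes at 193 (inverted), 84 and 41 and an inverted GC box at 117.

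Over whole windows of 300 bases, searched on both strands, the CRE was in 1.79% of all promoters and in those of 0 SR, 0 hnRNP and 1 CLK member, Clk4. Its core was in 20.8% of all promoters and in those of 7 of 10 SR, 11 of 18 hnRNP and 3 of 3 CLK members in the table. The GC box was in 35.7% of all promoters and in those of 9 SR, 14 hnRNP and 3 CLK members, and the CAAT box in 37.4% of all and in 4, 13 and 1. The median GC content was 52.7% over all promoters, 68.7% for SR, 64.7% for hnRNP and 65.3% for CLK members, so matches to letters rich in G and C are more likely in the members' windows. These shares are per promoter and the members are counted per gene, over up to 5 windows each, which makes a match more likely for a gene. Counted per promoter, 1 of the 43 windows of the members held the CRE, 26 its core, 36 the GC box and 22 the CAAT box. Other motifs searched were CCGGAAG (ETS, 8.86% of all promoters, in 4 SR, 2 hnRNP and 1 CLK member), GCATGCG (NRF1, 3.58%, in 2, 2 and 1) and CACGTG (E-box, 7.15%, in 0, 5 and 1). The TATA box (letters TATAAA) was in 13.6% of all promoters and in those of 2 SR, 2 hnRNP and 0 CLK members. GAANNTTC (heat shock) was in 7.86% and in 1, 3 and 0, and AAGATGGC (YY1) in 2.75% and in 0, 1 and 0. A match describes letters in a window and not a site in use.

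In the CTR libraries, the 7 highest levels per kilobase of exon among the members were those of hnRNP genes. Hnrnpab, an RNA-binding protein of the A/B type, had the highest level of the 34, 139.8 and 118 CPM per kb, and did not overlap with Hnrnpk next in order at 81.1 and 79.1. Hnrnpa2b1 (77.6 and 66.2), Hnrnpf (72.3 and 71.3) and Hnrnpa1 (78.0 and 61.1) followed and overlapped with each other. Srsf2, which marks nuclear speckles, was the highest SR gene with 48.1 and 50.8 CPM per kb, values that enclose those of Hnrnpc (49.3 and 50.1). Among the kinases Clk1 came first at 15.6 and 11.1, then Clk3 at 5.83 and 6.30, Clk2 at 4.13 and 3.51 and Clk4 at 3.59 and 2.79 CPM per kb. Hnrnpr had the lowest mean of the 34, with 2.52 and 2.77, under both values of Clk4 and within the spread of Hnrnpll (2.45 and 4.26). Summed over their members, SR genes had 866 and 861 CPM in CTR and hnRNP genes 4271 and 3726 CPM. Srsf2 had 142 and 150.2 CPM in CTR, 142 and 131 CPM in OAT-1746, 185 and 151 CPM in anti-PD-1 and 134, 169.6 and 161 CPM in COMB. Its highest value was in anti-PD-1 replicate 1 and its lowest in OAT-1746 replicate 2, and CTR lay within the range of COMB.

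**Figure D1:**
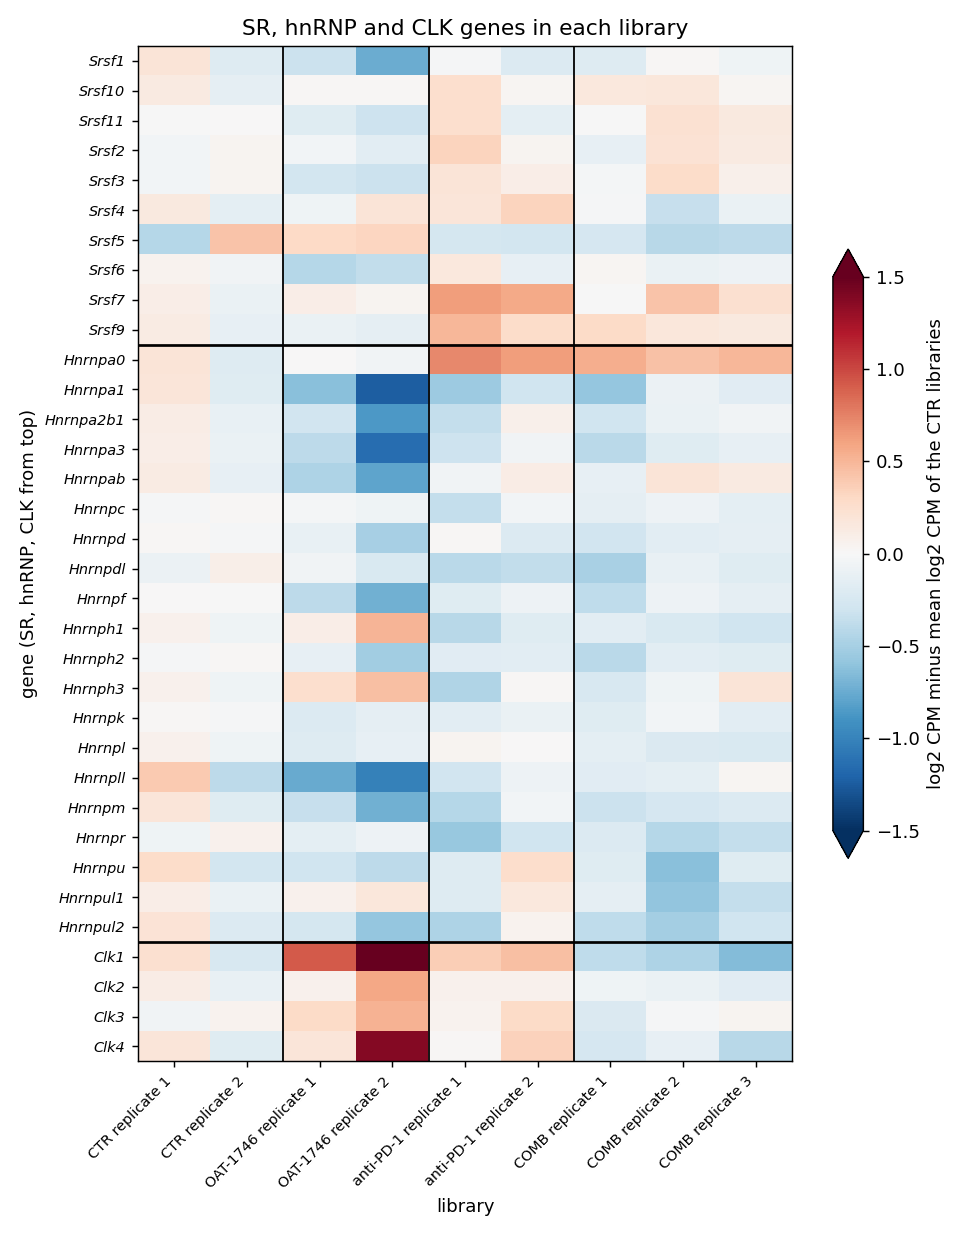
Each line is a member, ordered as SR, hnRNP and CLK genes from the top, and each column a library, with color giving the log2 CPM difference from the mean of the CTR libraries. OAT-1746 replicate 2 has the strongest colors, with a median absolute difference of 0.422 over the 34 members, and the color scale ends at 1.5 in either direction, short of its Clk1 value of 1.93.

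OAT-1746 against CTR asks what the arginase inhibitor alone did in these cells. The CLK kinases were higher and most hnRNP genes lower, and for Clk1 to Clk4 the difference from CTR was wider in replicate 2 than in replicate 1. In fitted log2 fold change, 4 of 4 CLK members were higher, 17 of 20 hnRNP members lower and 6 of 10 SR members lower, beside 6331 higher and 6207 lower of all genes tested. No member was called in edgeR's quasi-likelihood test with Benjamini-Hochberg adjustment (0 of 34, with 0% of 12538 genes called). At an unadjusted p under 0.05 there were 3 members up (16.1% of all genes) and 9 down (16.2%). These counts were 1 up and 2 down without OAT-1746 replicate 2, 5 and 11 without OAT-1746 replicate 1 and 2 and 3 without CTR replicate 1. DESeq2 called 6 members, Clk1 up and Hnrnpa1, Hnrnpa3, Hnrnpab, Hnrnpf and Hnrnpll down, against 17.3% of genes, a share near that background, and limma voom called 0 against 0%. Both OAT-1746 libraries lay above both CTR libraries for 5 members (30.8% of all genes) and under both for 19 (32.1% of all genes), 15 of these hnRNP and 4 SR genes. Without OAT-1746 replicate 1 the count called was 11 (3 up, 8 down) with 28.2% of all genes, again near the background, and without replicate 2 it was 0, as with each of the other 7 libraries left out.

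Clk1, a dual-specificity kinase of SR proteins, had the widest difference of the 34. Clk1 stood at 127 and 90.6 CPM in the CTR libraries, 203 and 409 in OAT-1746, 139 and 147 in anti-PD-1, and 82.0, 77.7 and 68.3 in COMB. Each OAT-1746 library exceeded all 7 others, replicate 2 by far, and COMB lay under all of the rest. The log2 fold change against CTR was 1.49 (SE 0.30), with 0.0610 as the adjusted p from edgeR's quasi-likelihood test with Benjamini-Hochberg adjustment, and 0.92 (SE 0.22, adjusted p = 0.267) without replicate 2. Clk4 had 20.8 and 16.2 CPM in CTR, 20.9 and 47.7 CPM in OAT-1746, 18.6 and 23.4 CPM in anti-PD-1 and 15.4, 16.8 and 13.8 CPM in COMB. For this close relative of Clk1, OAT-1746 replicate 1 was level with CTR replicate 1 and the difference rested on replicate 2. The log2 fold change of Clk4 was 0.89 (SE 0.34, adjusted p = 0.113) and 0.19 without that library, or 1.36 without replicate 1. For Clk3 the values were 49.3 and 53.2 CPM in CTR, 62.5 and 73.4 in OAT-1746, 53.0 and 62.6 in anti-PD-1 and 44.2, 50.6 and 52.7 in COMB. Both OAT-1746 libraries of Clk3 were above CTR and COMB, and replicate 1 was level with anti-PD-1 replicate 2. Its log2 fold change was 0.41 (SE 0.16, adjusted p = 0.121), and 0.30 without replicate 2. Clk2 had 21.9 and 18.6 CPM in CTR, 21.1 and 30.2 CPM in OAT-1746, 21.1 and 21.02 CPM in anti-PD-1 and 19.2, 18.8 and 17.9 CPM in COMB. Only OAT-1746 replicate 2 stood out among the 9 libraries for Clk2, and the fold change of 0.34 (SE 0.19, adjusted p = 0.240) became 0.071 without it, 0.57 without OAT-1746 replicate 1 and 0.22 without CTR replicate 2. The CLK median was 0.65, and 0.24 without replicate 2.

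**Figure D2:**
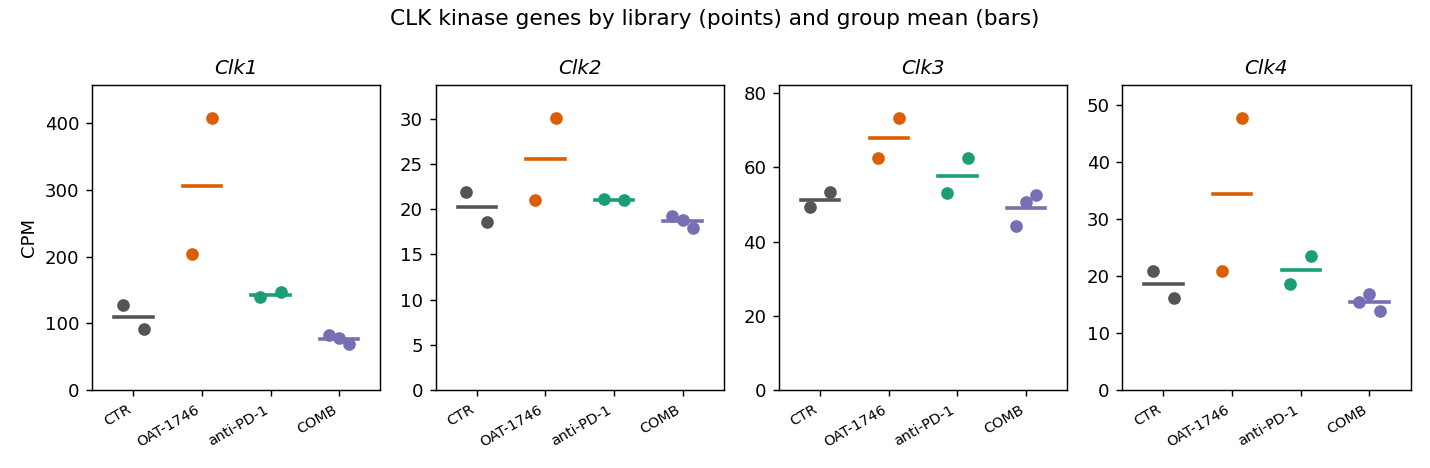
Points are single libraries and bars group means, in CPM on axes from 0, for Clk1 to Clk4 in the 4 groups. OAT-1746 replicate 2 is the highest point for each kinase, 409 CPM for Clk1 and 47.7 CPM for Clk4, while COMB lies between 68.3 and 82.0 CPM for Clk1.

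Among hnRNP genes, the 4 with the smallest p in this comparison were lower in OAT-1746. Hnrnpll stood at 49.7 and 28.6 CPM in the CTR libraries, 22.4 and 18.5 in OAT-1746, 30.9 and 35.7 in anti-PD-1, and 33.5, 34.1 and 38.4 in COMB. For this regulator of Ptprc exons in lymphocytes, both OAT-1746 libraries were under all others, and CTR replicate 1 was the highest of the 9. Its log2 fold change was -0.94 (SE 0.25, adjusted p = 0.0702 from edgeR's quasi-likelihood test with Benjamini-Hochberg adjustment), -0.80 without replicate 2 and -0.47 without CTR replicate 1. For Hnrnpa1 the values were 246 and 193 CPM in CTR, 141 and 92.5 in OAT-1746, 149.7 and 177 in anti-PD-1 and 145, 204 and 194 in COMB. Hnrnpa1, known for repressing exons from silencer sites, was under CTR in both OAT-1746 libraries, and also in both anti-PD-1 libraries and COMB replicate 1. The log2 fold change of Hnrnpa1 was -0.91 (SE 0.25, adjusted p = 0.0717), and -0.62 without replicate 2. Hnrnpab had 389 and 327 CPM in CTR, 259 and 206 CPM in OAT-1746, 343 and 384 CPM in anti-PD-1 and 328, 409 and 391 CPM in COMB. In OAT-1746 both Hnrnpab values were the lowest of the 9. Its log2 fold change was -0.62 (SE 0.19, adjusted p = 0.0798) and -0.46 without replicate 2. Hnrnpf stood at 220.2 and 217 CPM in the CTR libraries, 167 and 133 in OAT-1746, 193 and 207 in anti-PD-1, and 168, 207 and 199 in COMB. For Hnrnpf, which binds G-rich RNA, the OAT-1746 libraries were again the lowest of the 9, with COMB replicate 1 next to them. The log2 fold change of Hnrnpf was -0.55 (SE 0.17, adjusted p = 0.0836), and -0.38 without replicate 2.

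Of the 13 hnRNP members whose values are not given library by library (Hnrnpa2b1, Hnrnpa3, Hnrnpc, Hnrnpd, Hnrnpdl, Hnrnph2, Hnrnph3, Hnrnpk, Hnrnpl, Hnrnpm, Hnrnpu, Hnrnpul1 and Hnrnpul2), 11 were lower and 2 higher in OAT-1746, from -0.73 (Hnrnpa3) to 0.35 (Hnrnph3), with adjusted p of 0.0932 to 0.862. Hnrnpa3 was at -1.15 without OAT-1746 replicate 1 and -0.39 without replicate 2. Hnrnpa2b1, Hnrnpa3 and Hnrnpm were under an unadjusted p of 0.05, and none of them was without OAT-1746 replicate 2 or CTR replicate 1. The hnRNP median was -0.30 against 0.0080 for all tested genes, and -0.19 without OAT-1746 replicate 2. Leaving out OAT-1746 replicate 1 made it -0.47.

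SR genes differed less from CTR. For Srsf6 the values were 103 and 95.3 CPM in CTR, 74.0 and 76.5 in OAT-1746, 110.3 and 91.2 in anti-PD-1 and 101, 92.3 and 94.2 in COMB. Both OAT-1746 libraries of Srsf6 were under the 7 others, which overlapped among the groups. Its log2 fold change was -0.40 (SE 0.15, adjusted p = 0.107 from edgeR's quasi-likelihood test with Benjamini-Hochberg adjustment), and -0.41 without OAT-1746 replicate 2. Srsf1 stood at 144 and 110.1 CPM in the CTR libraries, 101 and 75.0 in OAT-1746, 124 and 109 in anti-PD-1, and 110.4, 127 and 120.0 in COMB. For Srsf1, the founding member of the family, both OAT-1746 libraries lay under the 7 others and CTR replicate 1 was the highest. The log2 fold change of Srsf1 was -0.53 (SE 0.20, adjusted p = 0.109), -0.32 without OAT-1746 replicate 2 and -0.31 without CTR replicate 1. Srsf3 had 119 and 126 CPM in CTR, 101 and 97.5 CPM in OAT-1746, 140.2 and 131 CPM in anti-PD-1 and 119.6, 148 and 129 CPM in COMB. Srsf3, a small SR protein that also serves mRNA export, had its lowest values in OAT-1746, with no overlap with another group. Its fold change was -0.30 (SE 0.15, adjusted p = 0.194), and -0.27 without replicate 2. Srsf11 stood at 75.1 and 75.7 CPM in the CTR libraries, 66.6 and 60.9 in OAT-1746, 89.9 and 68.0 in anti-PD-1, and 75.3, 88.6 and 83.3 in COMB. For Srsf11 the OAT-1746 libraries were the lowest of the 9, with anti-PD-1 replicate 2 close to them. The fold change of Srsf11 was -0.24 (SE 0.17, adjusted p = 0.330), and -0.17 without replicate 2. Over the 10 SR genes the range was -0.53 (Srsf1) to 0.25 (Srsf5), and Srsf5 turned sign without CTR replicate 1 (-0.11) and was at 0.73 without CTR replicate 2. The SR median of -0.11 became 0.020 with an offset for gene length and GC content, so its sign depends on that scaling, and it was -0.073 without OAT-1746 replicate 2 and -0.19 without CTR replicate 2.

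**Figure D3:**
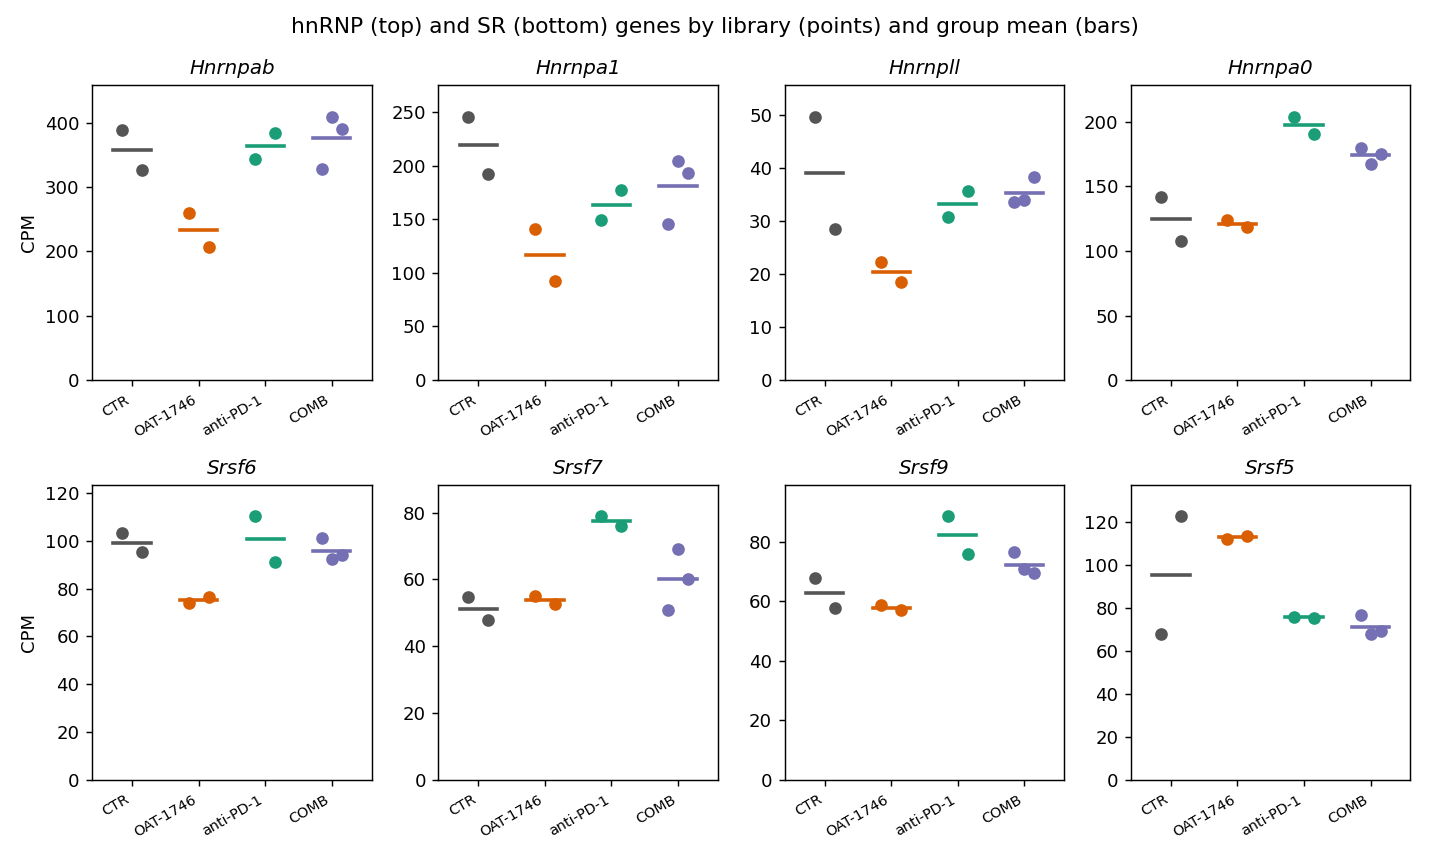
Points are single libraries and bars group means, in CPM on axes from 0, for SR and hnRNP genes named in the comparisons. Hnrnpll, at 22.4 and 18.5 CPM, and Hnrnpab, at 259 and 206 CPM, were lowest in the OAT-1746 libraries, and Hnrnpa0 was higher in the anti-PD-1 and COMB libraries (168 to 204 CPM) than in the others (108 to 142 CPM).

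Anti-PD-1 against CTR asks what the antibody alone did. SR genes tended to be higher and hnRNP genes lower, with 8 of 10 SR members above and 16 of 20 hnRNP members under CTR in fitted log2 fold change, beside 6655 higher and 5883 lower of all genes. No member was called in edgeR's quasi-likelihood test with Benjamini-Hochberg adjustment (0 of 34, with 0% of all genes), by DESeq2 (0, with 0.112%) or by voom (0, with 0%). At an unadjusted p under 0.05, 3 members were up (3.18% of all genes) and 2 down (1.94%), the latter Hnrnpdl and Hnrnpr. The counts and the members in them changed when a CTR or anti-PD-1 library was left out. Without CTR replicate 2, Hnrnpdl was at -0.30, Hnrnpr at -0.37, Hnrnpll at -0.58, Hnrnpa0 at 0.47, Srsf7 at 0.50 and Srsf9 at 0.27. Hnrnpa0 stood at 142 and 108 CPM in the CTR libraries, 124 and 119 in OAT-1746, 204 and 190.2 in anti-PD-1, and 179.7, 168 and 175 in COMB. Hnrnpa0, which binds AU-rich elements of cytokine transcripts, was higher in each anti-PD-1 and COMB library than in any CTR or OAT-1746 library. Its log2 fold change was 0.66 (SE 0.17, unadjusted p = 0.00303 and adjusted p = 0.951). For Srsf7 the values were 54.6 and 47.9 CPM in CTR, 55.0 and 52.6 in OAT-1746, 78.9 and 76.0 in anti-PD-1 and 50.7, 69.0 and 60.3 in COMB. Both anti-PD-1 libraries were above the 7 others for Srsf7, which shares the role of Srsf3 in export. The fold change of Srsf7 was 0.60 (SE 0.17, adjusted p = 0.951). Srsf9 had 68.0 and 57.8 CPM in CTR, 58.6 and 57.0 CPM in OAT-1746, 88.6 and 76.0 CPM in anti-PD-1 and 76.6, 70.7 and 69.5 CPM in COMB. For Srsf9 both anti-PD-1 libraries were above CTR and OAT-1746, and replicate 2 lay within the range of COMB. Its fold change was 0.39 (SE 0.15, adjusted p = 0.951). Hnrnpr stood at 55.9 and 61.5 CPM in the CTR libraries, 53.1 and 55.7 in OAT-1746, 39.4 and 47.4 in anti-PD-1, and 50.8, 43.6 and 45.8 in COMB. Hnrnpr was lower in anti-PD-1 and COMB than in CTR and OAT-1746, without overlap, at -0.43 (SE 0.15, adjusted p = 0.951).

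Hnrnpa1 was at -0.42 in anti-PD-1, and at -0.24 without CTR replicate 1. Of the 13 hnRNP members given by range, 11 were lower and 2 higher (7 and 6 without anti-PD-1 replicate 1), with Hnrnpdl lowest at -0.39 and with adjusted p of 0.951 to 0.996 in edgeR's quasi-likelihood test with Benjamini-Hochberg adjustment. Clk1 was at 0.40 (SE 0.30), and at 0.65 without CTR replicate 1 and 0.17 without CTR replicate 2. Clk3 was at 0.17, and at 0.11 without CTR replicate 1, 0.29 without anti-PD-1 replicate 1 and 0.042 without anti-PD-1 replicate 2. Clk4, at 0.19, became 0.37 and 0.011 without CTR replicate 1 and 2, and 0.34 and 0.0039 without anti-PD-1 replicate 1 and 2. Clk2 was at 0.059, a sign that turned with the length and GC offset (-0.031) and without CTR replicate 2 (-0.059), with 0.18 without CTR replicate 1, 0.032 without COMB replicate 1 and 0.032 without COMB replicate 3. The family medians were 0.14 for SR, -0.17 for hnRNP and 0.18 for CLK genes against 0.022 for all genes. Leaving out anti-PD-1 replicate 1 made them 0.036 for SR, -0.050 for hnRNP and 0.32 for CLK genes, and leaving out replicate 2 made them 0.21, -0.34 and 0.049. Without CTR replicate 1 the hnRNP median was -0.078 and the CLK median 0.28, and without CTR replicate 2 the CLK median was 0.090. NK cell markers (5 of 8 above 1 CPM in every library, none at 0 in all, Klrk1 most abundant) summed to 65.1 and 73.8 CPM in CTR, 87.5 and 21.1 in OAT-1746, 268 and 163 in anti-PD-1 and 72.2, 134 and 143 in COMB. Their part in these values was not tested.

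COMB against CTR asks what both agents did together. Here hnRNP genes were lower in 18 of 20 cases, SR genes were divided with 6 higher and 4 lower, and CLK genes were lower in 4 of 4, beside 6183 higher and 6355 lower of all genes. Among SR genes, Srsf5 alone was lower without CTR replicate 1 (-0.76). No member was called in edgeR's quasi-likelihood test with Benjamini-Hochberg adjustment (0 of 34, with 0% of all genes), by DESeq2 (0, with 0.279%) or by voom (0, with 0.016%). At an unadjusted p under 0.05, Hnrnpa0 was up (1 member, with 3.21% of all genes) and Hnrnpr down (1 member, with 3.37%). The count down was 2 without COMB replicate 1 and 0 without COMB replicate 2 or COMB replicate 3. The members counted also changed when a CTR or OAT-1746 library was left out, and Hnrnpr was not always among them. Without CTR replicate 2, Hnrnpr was at -0.26, Hnrnpll at -0.50 and Hnrnpul2 at -0.60. Hnrnpr was at -0.37 without CTR replicate 1 and -0.30 without OAT-1746 replicate 2. Hnrnpa0 had a log2 fold change of 0.48 (SE 0.15, adjusted p = 0.724), with 3 of 3 COMB libraries above both CTR libraries, and 0.29 without CTR replicate 2. Hnrnpr was at -0.33 (SE 0.14, adjusted p = 0.752), with 3 of 3 libraries under CTR. Srsf5 stood at 67.6 and 123 CPM in the CTR libraries, 112 and 114 in OAT-1746, 75.8 and 75.2 in anti-PD-1, and 76.5, 68.0 and 69.3 in COMB. The CTR libraries of Srsf5 lay far apart, replicate 2 with OAT-1746 and replicate 1 with the rest. Its fold change of -0.42 (SE 0.22, adjusted p = 0.767) became 0.071 without CTR replicate 2 and -0.76 without replicate 1. Srsf7 was at 0.23 (SE 0.15, adjusted p = 0.789), with COMB replicate 1 inside the CTR range, and at 0.35 without CTR replicate 1, 0.13 without CTR replicate 2 and 0.12 without COMB replicate 2.

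Clk1 was the 1 kinase of which COMB lay under CTR without overlap (15.8% of all genes), at -0.52 (SE 0.27, adjusted p = 0.767 from edgeR's quasi-likelihood test with Benjamini-Hochberg adjustment). Without CTR replicate 1 its value was -0.23 and without CTR replicate 2 -0.74. Clk4 was at -0.27, Clk2 at -0.12 and Clk3 at -0.060. Leaving out CTR replicate 1 made Clk4 -0.051 and Clk3 -0.090, and leaving out CTR replicate 2 made Clk4 -0.44, Clk2 -0.23 and Clk3 -0.0068. Clk2 was at -0.074 without COMB replicate 3, and Clk3 at -0.035 without OAT-1746 replicate 2, -0.010 without COMB replicate 1 and -0.10 without COMB replicate 3. The sign turned for Clk2 without CTR replicate 1 (0.030) and for Clk3 in limma voom (0.0096). All 13 hnRNP members given by range were lower, with adjusted p of 0.767 to 0.983 and Hnrnpul2 lowest at -0.41, or -0.16 without CTR replicate 1. The family medians were 0.098 for SR, -0.21 for hnRNP and -0.19 for CLK genes against -0.0048 for all genes tested. The SR median was 0.020 without COMB replicate 2, the hnRNP median -0.11 without CTR replicate 1, and the CLK median -0.071 without CTR replicate 1 and -0.34 without CTR replicate 2. The contrasts of OAT-1746, anti-PD-1 and COMB share the CTR libraries, so their values stand side by side and are not independent of each other.

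COMB against OAT-1746 asks what the antibody added to the inhibitor, and it is the comparison in which edgeR called members under the settings used throughout. The kinases Clk1 and Clk4 fell with Hnrnph1, and Hnrnpab, Hnrnpll and Hnrnpa0 rose, while no SR gene was called under these settings. In edgeR's quasi-likelihood test with Benjamini-Hochberg adjustment, 6 of 34 members were called with 15.8% of all genes (1979 of 12538), so the members' share is near the background and is not a result about them as a set. The 3 that rose compare with 6.84% of all genes and the 3 that fell with 8.94%. DESeq2 called 10 members, 5 in each direction and the SR genes Srsf3 and Srsf5 among them, with 25.4% of genes, and voom 6 with 22.4%. Clk1 (ENSMUSG00000026034, chromosome 1) fell by 2.01 on the log2 scale (SE 0.27, adjusted p = 0.0142), with 3 of 3 COMB libraries under both OAT-1746 libraries. Clk4 (ENSMUSG00000020385, chromosome 11), whose promoter holds the CRE, fell by 1.16 (SE 0.30, adjusted p = 0.0385), again without overlap. Such a lack of overlap was common. COMB lay above OAT-1746 without overlap for 12 members (3138 of all 12538 genes) and under it for 10 members (3627 of all genes). For Hnrnph1 the values were 85.4 and 78.3 CPM in CTR, 87.8 and 117 in OAT-1746, 61.4 and 72.2 in anti-PD-1 and 73.2, 69.6 and 66.4 in COMB. Hnrnph1 (ENSMUSG00000007850, chromosome 11), a relative of Hnrnpf, had its highest values in OAT-1746 and fell by 0.55 in COMB (SE 0.15, adjusted p = 0.0439).

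Over the alternatives other than leaving out a library, the adjusted p of these calls from edgeR's quasi-likelihood test with Benjamini-Hochberg adjustment or the test put in its place ran from 6.09e-09 to 0.205 for Clk1, 0.00700 to 0.243 for Clk4, 0.0224 to 0.270 for Hnrnph1, 0.00240 to 0.334 for Hnrnpab, 0.0147 to 0.230 for Hnrnpll and 0.0128 to 0.423 for Hnrnpa0. Hnrnpab (ENSMUSG00000020358, chromosome 11) was 0.69 higher in COMB on the log2 scale (SE 0.18, adjusted p = 0.0373 from edgeR's quasi-likelihood test with Benjamini-Hochberg adjustment), with 3 of 3 libraries above OAT-1746 and COMB within or above the CTR range. Hnrnpll (ENSMUSG00000024095, chromosome 17) was 0.79 higher (SE 0.23, adjusted p = 0.0490), with COMB between the CTR libraries. Hnrnpa0 (ENSMUSG00000007836, chromosome 13) was 0.52 higher (SE 0.15, adjusted p = 0.0487), and for this gene the OAT-1746 libraries lay within the CTR range while COMB lay above it. Among SR genes, Srsf5 had a fold change of -0.66 (SE 0.22, adjusted p = 0.0637) and Srsf3 of 0.42 (SE 0.14, adjusted p = 0.0679), both without overlap between the groups, and -0.64 and 0.40 without OAT-1746 replicate 2. Clk3 was at -0.47 (adjusted p = 0.0560) and Clk2 at -0.46 (adjusted p = 0.0930), each with COMB under OAT-1746 in 3 of 3 libraries, as for 3627 of 12538 genes. Without OAT-1746 replicate 2, Clk3 and Clk2 were at -0.33 and -0.16, with Clk2 at -0.69 without OAT-1746 replicate 1. Under the length and GC offset Clk3 was at -0.22, Hnrnpab at 0.44 and Hnrnpa0 at 0.33. The 13 hnRNP members given by range ran from -0.46 (Hnrnpul1) to 0.49 (Hnrnpa3), 8 higher and 5 lower (5 and 8 without OAT-1746 replicate 2), and Hnrnpa3 was at 0.91 without OAT-1746 replicate 1 and 0.17 without replicate 2.

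Most of these calls lie near the threshold and ended when a library was left out, also where the log2 fold change stayed as large. Without OAT-1746 replicate 2, 1 member was called, Clk1 at -1.40 (SE 0.20, adjusted p = 0.0236 from edgeR's quasi-likelihood test with Benjamini-Hochberg adjustment), among 27 genes called in all (0.21%). Leaving out OAT-1746 replicate 1 gave 11 members with 31.4% of all genes, a share near the background, and COMB replicate 1 gave 5 with 23.4%. Either CTR library left out gave 3 (Clk1, Hnrnpll and Srsf5, with 5.68% of all genes without replicate 1 and 6.28% without replicate 2), and either anti-PD-1 library 1 (Clk1, with 6.67% and 7.18%). Leaving out COMB replicate 2 or COMB replicate 3 gave 0, with 14 and 5 genes called in all, and Clk1 at an adjusted p of 0.0840 and 0.0997. Clk4 lost its call without OAT-1746 replicate 2 (-0.43, adjusted p = 0.309), CTR replicate 1 (0.0596), CTR replicate 2 (0.0591), anti-PD-1 replicate 1 (0.0566), anti-PD-1 replicate 2 (0.0565), COMB replicate 2 (0.120) and COMB replicate 3 (0.138), yet of these only leaving out OAT-1746 replicate 2 moved its fold change beyond -1.23 to -1.08. Hnrnph1 (-0.32, adjusted p = 0.307 without OAT-1746 replicate 2) and Hnrnpab (0.55, adjusted p = 0.201) were called without OAT-1746 replicate 1 or COMB replicate 1 and lost their call without each of the 7 others, with fold changes of -0.55 and 0.63 without COMB replicate 2 for example, at adjusted p from 0.0600 and 0.0534 upward. Hnrnpll (0.67, adjusted p = 0.241 without OAT-1746 replicate 2) was called without either CTR library or OAT-1746 replicate 1, and without the 6 others its fold change was 0.67 to 0.81 and its adjusted p 0.0607 to 0.241. Hnrnpa0 (0.51 without OAT-1746 replicate 2) lost its call with each of the 9 libraries left out, while its fold change stayed between 0.47 and 0.56, at adjusted p of 0.0558 (CTR replicate 1) to 0.215 (OAT-1746 replicate 2). A fit of the COMB and OAT-1746 libraries alone called 0 members (Clk1 adjusted p = 0.0674, and 6.09e-09 to 0.205 over the alternatives), the length and GC offset called Clk1, Clk4 and Hnrnpll with 12% of all genes, and scaling by library size alone called 5 members with 15.6%, Hnrnpab up and Clk1, Clk3, Clk4 and Hnrnph1 down.

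**Figure D4:**
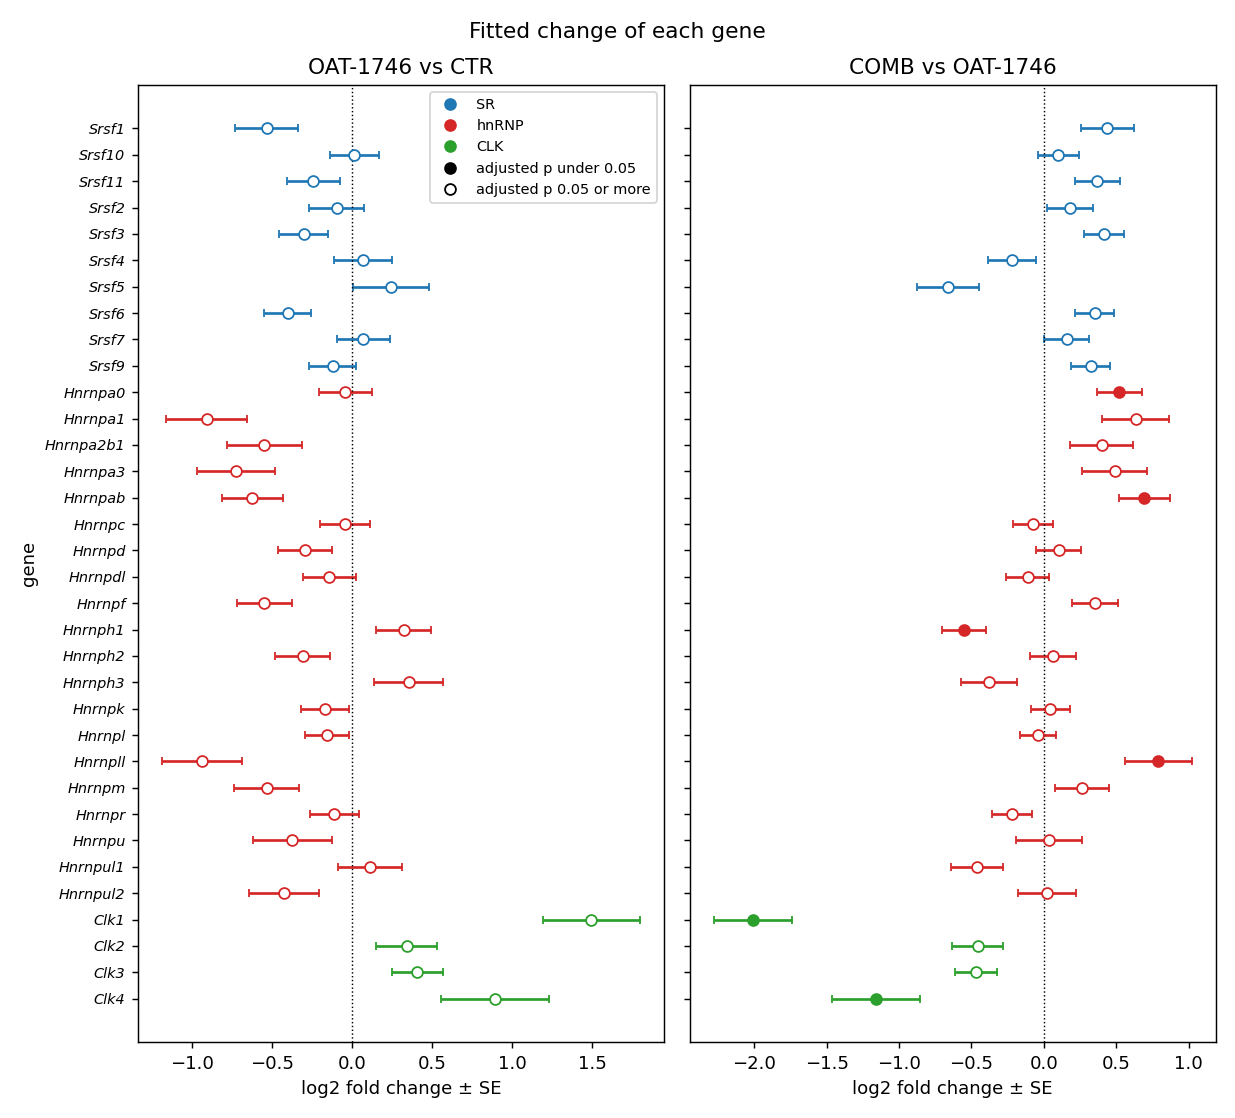
Points are fitted log2 fold changes of the 34 members with their standard errors, for OAT-1746 against CTR on the left and COMB against OAT-1746 on the right, and filled points have an adjusted p under 0.05. On the left no point is filled, and on the right 6 are, from Clk1 at -2.01 to Hnrnpll at 0.79.

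COMB against anti-PD-1 asks what the inhibitor added to the antibody. No member was called in edgeR's quasi-likelihood test with Benjamini-Hochberg adjustment (0 of 34, with 0% of all genes), by DESeq2 (0, with 0.434%) or by voom (0, with 0.279%). At an unadjusted p under 0.05 there were 0 members up (1.98% of all genes) and 3 down (5.26%), Clk1, Srsf4 and Srsf7, or 1 down without anti-PD-1 replicate 2 or COMB replicate 3. Clk1 was at -0.91 (SE 0.27, adjusted p = 0.574), and 4 of 4 kinases had 3 of 3 COMB libraries under both anti-PD-1 libraries (16.4% of all genes), with fold changes of -0.45 for Clk4, -0.23 for Clk3 and -0.18 for Clk2. Leaving out anti-PD-1 replicate 2 made Clk4 -0.27 and Clk3 -0.10, leaving out anti-PD-1 replicate 1 made Clk3 -0.35, and leaving out COMB replicate 3 made Clk2 -0.11. Srsf7 was at -0.37 and Srsf4 at -0.41, both with an adjusted p of 0.661. Of the 13 hnRNP members given by range Hnrnpu was lowest at -0.37, or -0.58 without anti-PD-1 replicate 1, -0.11 without anti-PD-1 replicate 2 and -0.23 without COMB replicate 2.

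The interaction asks whether OAT-1746 made another difference beside the antibody than it made alone. The kinases had negative and most hnRNP genes positive values (4 of 4 lower and 15 of 20 higher), and no member was called in edgeR's quasi-likelihood test with Benjamini-Hochberg adjustment (0 of 34, with 0.359% of all genes). At an unadjusted p under 0.05, Hnrnpa1, Hnrnpab and Hnrnpll were up (3 members, with 11.8% of all genes) and Clk1, Clk3 and Clk4 down (3 members, with 14.4%). The counts were 2 up and 1 down without OAT-1746 replicate 2, 8 and 4 without OAT-1746 replicate 1, 1 and 2 without CTR replicate 1 and 4 and 1 without anti-PD-1 replicate 2. DESeq2 called 2 members, Hnrnpa1 and Clk1, with 9.05% of genes, and voom 1, Clk1, with 3.41%. Clk1 was at -2.40 (SE 0.41, adjusted p = 0.0514), and without OAT-1746 replicate 2 at -1.80 (SE 0.27, adjusted p = 0.0402), the 1 member then called, with 0.203% of all genes. Leaving out COMB replicate 1 also called 1 member, Clk1, with 3.4% of all genes, and leaving out OAT-1746 replicate 1 called 4 (Clk1, Clk4, Hnrnpa1 and Hnrnpa3) with 21.3%, so the members were under the background there. With COMB replicate 2 or COMB replicate 3 left out, 0 members and 0 genes in all were called. Clk1 was at -2.65 without CTR replicate 1 and -2.17 without CTR replicate 2. Its adjusted p (edgeR or the test put in its place) ran from 1.71e-05 to 0.400 over the alternatives that kept every library. Hnrnpa1 was at 1.06 (SE 0.34, adjusted p = 0.121) and at 0.80 without OAT-1746 replicate 2, and Hnrnpll at 1.02 (SE 0.34, adjusted p = 0.124) and 0.91, or 0.59 without CTR replicate 1. Srsf4 had 36.8 and 29.9 CPM in CTR, 31.8 and 38.1 CPM in OAT-1746, 37.6 and 42.0 CPM in anti-PD-1 and 32.7, 26.2 and 31.1 CPM in COMB. Srsf4, a long SR protein, overlapped between CTR, OAT-1746 and COMB, and its highest value was in anti-PD-1 replicate 2. Srsf1 was at 0.56 (SE 0.27, adjusted p = 0.215) and Srsf4 at -0.48 (SE 0.24, adjusted p = 0.242), or 0.38 and -0.32 without OAT-1746 replicate 2, and Srsf1 was at 0.37 without CTR replicate 1. Clk3 and Clk4 were at -0.64 and -1.35, or -0.50 and -0.61 without OAT-1746 replicate 2, and Clk3 was at -0.31 under the length and GC offset.

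A test of any difference among the 4 groups called 0 of 34 members in edgeR's quasi-likelihood test (0.191% of all genes), with adjusted p of 0.0629 (Clk1) to 0.806 (Srsf10) after Benjamini-Hochberg adjustment. DESeq2 called 6 members (Hnrnpa0, Hnrnpab, Hnrnph1, Hnrnpll, Clk1 and Clk4) with 17.3% of genes, and voom 2 (Hnrnpa0 and Clk1) with 3.16%. Leaving out OAT-1746 replicate 1 gave 6 members with 18.5% of all genes, a share near the background, leaving out COMB replicate 1 gave 1 with 1.6%, and 0 were called with any of the 7 others left out.

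SR genes were then set against hnRNP genes within each library. The median difference of the SR genes from the CTR mean, in log2 CPM, was 0.076 and -0.076 in CTR, -0.078 and -0.15 in OAT-1746, 0.22 and 0.036 in anti-PD-1 and -0.016, 0.17 and 0.054 in COMB. The corresponding hnRNP median was 0.081 and -0.081 in CTR, -0.20 and -0.45 in OAT-1746, -0.30 and -0.047 in anti-PD-1 and -0.22, -0.15 and -0.16 in COMB. All 7 treated libraries and CTR replicate 2 had a negative hnRNP median, and the SR median had either sign. The SR median less the hnRNP median was -0.0053 and 0.0053 in CTR, 0.12 and 0.30 in OAT-1746, 0.52 and 0.083 in anti-PD-1 and 0.21, 0.32 and 0.22 in COMB. It was thus positive in 7 of 7 treated libraries, 0.21 ± 0.13 in OAT-1746 (SD, n = 2), 0.30 ± 0.31 in anti-PD-1 (n = 2) and 0.25 ± 0.063 in COMB (n = 3). CTR serves as the zero here, so that its libraries mirror each other and their mean of 0 is built in. Their nearness to each other is not built in. On summed CPM, a scale without that zero, the SR total was 20.3% and 23.1% of the hnRNP total in CTR. The anti-PD-1 libraries differed from each other by more than their group mean, and OAT-1746 was at 0.12 without its replicate 2 and at 0.12 without CTR replicate 1. Anti-PD-1 was at 0.083 without its replicate 1 and 0.52 without replicate 2. Under the length and GC offset the OAT-1746 value was 0.39. Genes under the CTR mean numbered 4 and 16 of 20 hnRNP members in CTR itself, 16 and 17 in OAT-1746, 17 and 12 in anti-PD-1 and 19, 18 and 16 in COMB, so that CTR replicate 2 lay within the range of the treated libraries. On summed CPM, the SR total was 20.3% and 23.1% of the hnRNP total in CTR, 23.6% and 25.8% in OAT-1746, 28.7% and 21.7% in anti-PD-1 and 24.5%, 25.3% and 23.6% in COMB. On that scale anti-PD-1 replicate 2 lay within the CTR range, and the 6 other treated libraries were above it. No test was made over members, which are not replicates.

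**Figure D5:**
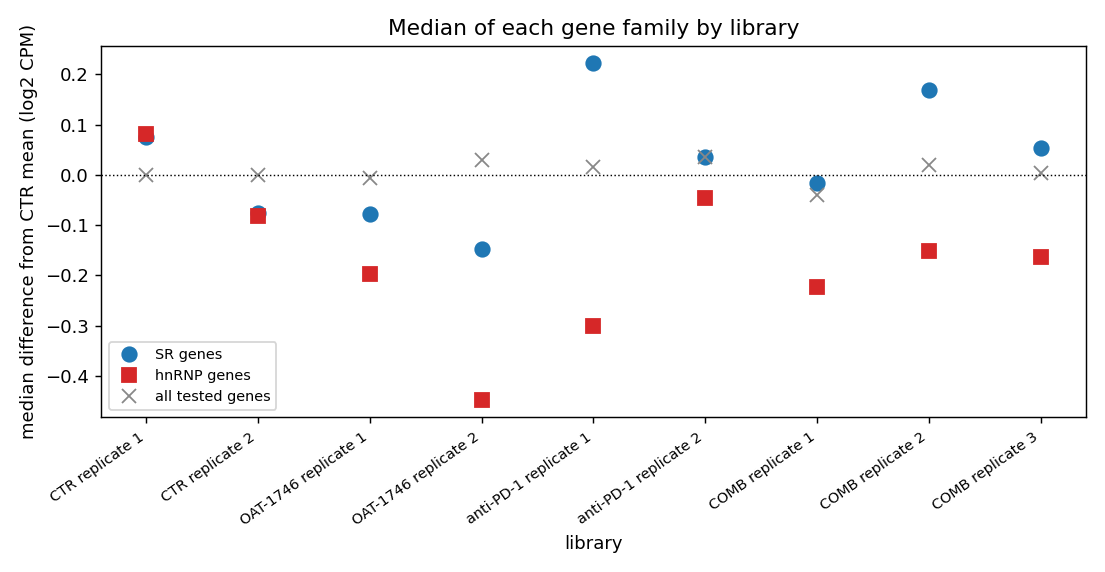
Points give, for each library, the median log2 CPM difference from the CTR mean over the 10 SR genes (circles), the 20 hnRNP genes (squares) and all tested genes (crosses). The hnRNP median is negative in all 7 treated libraries, from -0.45 to -0.047, and also in CTR replicate 2, at -0.081, which lies within that range. The SR median of the OAT-1746 group, at -0.15 and -0.078 in its libraries, turns sign in the fitted fold change under a length and GC offset.

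Other splicing genes were read from lists, with the fitted log2 fold change of OAT-1746 against CTR, in which no gene of any list was called by edgeR. Of the Sm, LSm and U1 snRNP genes, which form the core particles of the spliceosome, 17 of 17 were lower in OAT-1746, 12 at an unadjusted p under 0.05 (16.2% of all genes were down and 16.1% up at that p), or 5 without OAT-1746 replicate 2, with a median of -0.81 (-0.49 without replicate 2), led by Snrpd2 (-1.01), Lsm5 (-1.21) and Snrpd1 (-0.81). In COMB against OAT-1746, 7 of these 17 rose at adjusted p under 0.05, Lsm5 by 1.41, and 0 were called without OAT-1746 replicate 2, with Lsm5 at 1.11 (adjusted p = 0.153). Their median in that comparison was 0.68, and 0.45 without OAT-1746 replicate 2, beside 0.053 and 0.0039 for the hnRNP members. Of the tri-snRNP and PRP19 complex genes 22 of 22 were lower, 6 at an unadjusted p under 0.05 (0 without OAT-1746 replicate 2, 0 without CTR replicate 1 and 10 without OAT-1746 replicate 1), median -0.27 (-0.19 without replicate 2), with Snrnp27 at -0.69, Prpf31 at -0.79 and Eftud2 at -0.55, and Usp39 rose in COMB against OAT-1746. Of the genes for the U2 snRNP and the splice acceptor 14 of 15 were lower, 5 at an unadjusted p under 0.05 (1 without OAT-1746 replicate 2 and 2 without CTR replicate 1), median -0.27 (-0.22 without replicate 2), with U2af1 at -0.63, Sf3a3 at -0.60 and Sf3b6 at -0.70, and U2af1 and Sf3b6 rose in COMB against OAT-1746. Without OAT-1746 replicate 2 none of these 3 was called, with Usp39 at 0.41 (adjusted p = 0.236), U2af1 at 0.52 (adjusted p = 0.219) and Sf3b6 at 0.59 (adjusted p = 0.231). Over all genes 6.84% rose and 8.94% fell in that comparison, and calls in the lists were not read without the other libraries.

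Relatives of the members under other symbols were mixed. Among hnRNP proteins of other names, 13 of 16 were lower in OAT-1746 (median -0.21, -0.22 without replicate 2), with Ewsr1 at -0.85, Taf15 at -0.49 and Ptbp2 at 1.03, and Ptbp2 fell in COMB against OAT-1746. SR-related proteins had 11 of 21 lower (5 of 21 without CTR replicate 1, median -0.12, -0.092 without OAT-1746 replicate 2), with Srrm1 at -0.75, Luc7l2 at -0.60 and Rsrc1 at -0.41, and Scaf1, Scaf4 and Scaf8 fell in COMB against OAT-1746. Of the other SR kinases and importins, 4 of 7 were higher (2 of 7 without CTR replicate 2, median 0.10, 0.025 without OAT-1746 replicate 2, and -0.072 with the length and GC offset), with Dyrk1a at 0.66, Srpk3 at 0.95 and Tnpo3 at -0.32. Dyrk1a and Srpk2, kinases of splicing factors like the CLK members, fell in COMB against OAT-1746, by 0.66 and 0.58. Without OAT-1746 replicate 2 no gene of these lists was called there, with Ptbp2 at -0.88 (adjusted p = 0.238), Scaf1 at -0.44 (adjusted p = 0.198), Scaf4 at -0.50 (adjusted p = 0.259), Scaf8 at -0.33 (adjusted p = 0.328), Dyrk1a at -0.49 (adjusted p = 0.221) and Srpk2 at -0.52 (adjusted p = 0.233). Nonsense-mediated decay genes, which act on the self-limiting transcripts of many SR and hnRNP genes, had 7 of 10 higher (median 0.31, 0.15 without replicate 2), with Upf3a at -0.67, Smg6 at 0.40 and Smg8 at 0.29.

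Cell state lists were read beside the members. Immediate early genes, which respond quickly to stimulation and handling, had a median log2 CPM difference from CTR of 0.096 and -0.096 in CTR, 0.25 and 0.90 in OAT-1746, -0.31 and 0.39 in anti-PD-1 and -1.12, -1.03 and -0.94 in COMB. In OAT-1746 14 of 16 were higher, 6 of them at an unadjusted p under 0.05. With all 9 libraries, 16.1% of all genes were up and 16.2% down at that p. In COMB against OAT-1746 13 of 16 fell at adjusted p under 0.05 (8.94% of all genes fell), and in the interaction 4 did. Without OAT-1746 replicate 2 the counts were 3 (Egr1, Jun and Ier2) and 4 (the same and Atf3). Without COMB replicate 2 or COMB replicate 3, 14 and 5 genes of any kind were called in COMB against OAT-1746, and 0 in the interaction. The median of the immediate early genes in OAT-1746 against CTR was 0.65, and 0.21 without OAT-1746 replicate 2. The group means of Clk1 to Clk4 had the same order, highest in OAT-1746 and lowest in COMB. OAT-1746 replicate 1 exceeded both anti-PD-1 libraries for Clk1 alone, so for the other kinases that order rests on replicate 2. Proliferation genes had medians of -0.023 and 0.023 in CTR, -0.82 and -2.14 in OAT-1746, -0.84 and -0.51 in anti-PD-1 and -0.57, -0.24 and -0.40 in COMB, and 22 of 22 were lower in OAT-1746 (19 at an unadjusted p under 0.05, median -1.45, -0.82 without replicate 2), as the hnRNP members mostly were, and 5 of 22 rose in COMB against OAT-1746, with 6.84% of all genes, and 0 without OAT-1746 replicate 2. Heat shock genes had medians of 0.24 and -0.24 in CTR, -0.10 and -0.39 in OAT-1746, 0.21 and 0.54 in anti-PD-1 and -0.32, -0.21 and -0.11 in COMB, and 3 of 12 fell in COMB against OAT-1746, or 0 without OAT-1746 replicate 2. Their median in OAT-1746 was -0.35, and -0.24 without that library, with 5 of 12 higher and 7 lower when all libraries were used. In COMB against OAT-1746, 8 of 12 were higher and 4 lower. Their median there was 0.060, and -0.13 without OAT-1746 replicate 2. The part of these states in the members' values was not tested.

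The members share no position in the genome beyond a pair. Hnrnpd and Hnrnpdl lie 54639 bases apart on chromosome 5, on the same strand, and no other 2 members lie within 100 kb. Counting was strand-specific, and 1 member, Hnrnpm, overlaps on its own strand with another protein-coding gene with counts, March2 (6691 counts in total), so read pairs in the overlap have no single gene. Hnrnpm had a log2 fold change of -0.53 in OAT-1746, -0.34 without OAT-1746 replicate 2 and -0.33 without CTR replicate 1.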

How the data were processed

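Raw counts of read pairs per gene, deposited by the authors without normalization, were used for all 9 libraries. According to their methods, the authors used Trimmomatic for trimming, STAR for alignment to mm10 and counted with HTSeq in reverse stranded mode at a mapping quality of 10 or more, and the annotation release is not stated. Of the genes listed, 53620 had an entry in GENCODE M21 and 181 had none, and 21890 were protein-coding. Analysis used R 4.3.3 and edgeR 4.0.16 (filterByExpr with minimum count 10, TMM, quasi-likelihood F test on 4 group means, all 9 libraries in a common fit), which left 12538 genes. Adjusted p is Benjamini-Hochberg over all tested genes, and a gene was called at an adjusted p under 0.05. Over all genes, the spread between replicates corresponded to a coefficient of variation of 0.214 (common dispersion), shrunk with 4.15 prior degrees of freedom. Log2 CPM used a prior count of 2.

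The 7 comparisons were the 6 contrasts and the test of any difference among the 4 groups. Alternatives were DESeq2 1.42.0 (Wald test, likelihood ratio test for the 4 groups, independent filtering), DESeq2 size factors, library size alone, no low-count filter, 10 counts in every library, all gene types, a replicate block, an offset from a loess (span 0.5) on exon length and GC, the block and offset together, robust estimation, voom with sample quality weights in limma 3.58.1, a fit of the compared groups alone, the families without the minimum count, and leaving out each library.

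Values in every library are given for Clk1 to Clk4, for the 4 SR and 4 hnRNP members of smallest unadjusted p in OAT-1746 against CTR, for 2 of each in COMB against OAT-1746, the interaction, and both COMB and anti-PD-1 against CTR, and for the SR and hnRNP member of highest CTR level per kb of exon. From each splicing list the 3 genes of smallest unadjusted p in OAT-1746 against CTR are named, and genes called in a list were added after their values were seen. Members and lists were chosen with earlier results of these data known. Steps were tested on simulated data. Protein sequences and other experiments of the study were not used here, and 1 list of cell type markers is not reported here. Python 3.11.15 with matplotlib 3.10.9 made the figures.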

Additional observations from a re-analysis of the deposited data

How the results depend on the processing

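Of the alternatives to log2 fold changes of single members, 935 kept direction and side of the threshold, 66 lost and 35 gained a call, and 6 turned sign. Only the 6 members called in COMB against OAT-1746 had a call to lose, so all 66 losses are theirs. Most of the 935 are members that were not called and stayed so, and they do not show that the calls are stable. Of those to counts and family medians, 369 stayed within the spread between replicates or 1.5 times the count and 40 did not. The cause was not tested where none is given.

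DESeq2 called 6 members in OAT-1746 against CTR, 10 in COMB against OAT-1746, 2 in the interaction and 6 among the 4 groups, and voom 1 in the interaction and 2 among the groups. Without a low-count filter, 1 was called in OAT-1746, in the interaction and among the groups, with 587, 146 and 361 of 16075 genes, and robust estimation called 1 in the interaction with 51 of 12538. A fit of the compared groups alone called 0 in COMB against OAT-1746, with fewer samples.

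With the length and GC offset, 3 members were called in COMB against OAT-1746 and 1 in the interaction (with 1507 and 44 genes), the SR median in OAT-1746 was 0.020, SR less hnRNP 0.39 and Clk2 in anti-PD-1 -0.031. The replicate block assumes that equal replicate numbers pair across groups, which no label states. With the block 0 members and 2 of 12538 genes were called in COMB against OAT-1746 (1979 without it), and Clk1 there was at -1.91 (adjusted p = 0.205, and 6.09e-09 to 0.205 over all alternatives). The block with the offset also called 0, with 4 genes called in all, with an SR median of 0.022 and SR less hnRNP of 0.39 in OAT-1746 and Clk2 at -0.036 in anti-PD-1. With the offset Clk3 was at 0.084 for anti-PD-1, 0.22 for OAT-1746 and -0.092 for COMB against anti-PD-1, Clk2 at 0.22 in OAT-1746 and -0.097 in COMB against anti-PD-1, and Hnrnpr at -0.19 and the SR median at 0.040 in COMB. In voom Clk3 was at 0.0096 in COMB against CTR.

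Leaving out each library gave 0 to 11 members called in OAT-1746 against CTR and in COMB against OAT-1746, 0 to 4 in the interaction and 0 to 6 among the 4 groups. Medians ran from 0.036 to 0.21 (SR) and -0.34 to -0.050 (hnRNP) in anti-PD-1, and from -0.47 to -0.19 (hnRNP) and 0.24 to 0.97 (CLK) in OAT-1746. SR less hnRNP in anti-PD-1 ran from 0.083 to 0.52. Clk2 ran from -0.059 to 0.18 in anti-PD-1 and from -0.23 to 0.030 in COMB, and Srsf5 from -0.76 to 0.071 in COMB. Where 1 library was left in a group, it is assumed to vary like the other groups. With 2 libraries in most groups the spread is borrowed from other groups and genes. The lowest member count in a library was 152.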

Other observations

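Markers of other cell types were read as sums. Astrocyte markers (4 of 5 above 1 CPM in every library, Aldoc most abundant) summed to 66.3 and 68.3 CPM in CTR, 81.5 and 61.9 in OAT-1746, 66.1 and 77.2 in anti-PD-1 and 119.9, 117 and 113 in COMB, a sum that was higher in 3 of 3 COMB libraries than in the 6 others but did not hold for each marker. Gfap was lowest in COMB (3.71, 4.29 and 2.84 CPM against 5.17 to 11.1), and Aldoc in COMB replicate 1 (47.2) was near CTR replicate 1 (44.8). Neutrophil markers (8 of 8, Csf3r most abundant) summed to 317 to 691 CPM and border-associated macrophage markers (5 of 5, Mrc1) to at most 442, both sums highest in OAT-1746 replicate 2, where of the single markers only Csf3r, Ngp, Mrc1 and Cd163 were at their highest. Sums ranged from 215 to 368 CPM for oligodendrocyte (5 of 5, Cnp), 113 to 171 for endothelial (4 of 4, Flt1) and 46.4 to 73.6 for dendritic cell markers (3 of 5, Cd209a). T cell markers (2 of 7 above 1 CPM in every library, Cd4 most abundant) summed to 11.8 to 25.5 CPM, B cell markers (1 of 4, Cd79b) to 10.5 to 25.4, neuron markers (1 of 5, Tubb3) to 3.17 to 10.9 and erythroid markers (0 of 5, Hbb-bs) to 0.845 to 30.7. Both OAT-1746 libraries had the highest B cell sums (22.2 and 25.4 CPM), mostly Cd79b, and the highest neuron sums (9.55 and 10.9 CPM). Tubb3 itself was highest in CTR replicate 2 (3.18 CPM). OAT-1746 replicate 1 had the next highest sums of neutrophil (513 CPM) and border-associated macrophage markers (349, beside 347 in COMB replicate 1). The part of these markers in the values of the splicing factors was not tested.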
